A study of Homo sapiens with 12 samples.

Results

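The enzymes and regulators of cholesterol and fatty acid synthesis were examined in 2 head and neck squamous cell carcinoma (HNSCC) cell lines in which the oncoprotein subunit MUC1-C was silenced. The set was a list of 32 genes grouped by their function, out of 39368 gene symbols counted in the RNA-seq tables. It held 5 genes of the SREBP machinery, 7 of the mevalonate segment, 11 that carry squalene to cholesterol, the sterol transfer gene STARD4, and 8 genes of fatty acid synthesis and activation. All 32 genes passed the filter on low counts in each line. CAL27 and HSC3 are HPV-negative lines, grown in DMEM and MEM respectively with fetal bovine serum, so that cell line and medium cannot be told apart. Every cell carried a puromycin-selected vector with a doxycycline-inducible MUC1 shRNA (tet-MUC1shRNA). Triplicate cultures of each line received 0.1% DMSO (vehicle) or 500 ng/ml doxycycline (DOX) for 7 days, which gave 4 groups of 3 libraries. A DOX-treated line with the control shRNA was not analysed here, so the response to DOX itself and that to MUC1 silencing cannot be told apart.

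Cholesterol and fatty acids are both built from acetyl-CoA. When membranes of the endoplasmic reticulum run short of sterol, SCAP escorts the SREBP precursors, encoded by SREBF1 and SREBF2, to the Golgi, where proteases release fragments that enter the nucleus and activate the genes of these pathways, whereas INSIG proteins hold SCAP back when sterol is plentiful. SREBP-1 acts mainly on fatty acid genes and SREBP-2 mainly on cholesterol genes, and squamous tumors, like other carcinomas, often keep lipid synthesis active.

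The libraries held 89730914 to 169065103 counts, and the lowest count of any member in any library was 75, for CYP51A1. MUC1 was at 63.9, 58.9 and 59.9 TMM-normalized CPM (read counts scaled to a common library size) in the CAL27 vehicle libraries and at 3.19, 3.06 and 3.58 CPM with DOX. In HSC3 cells it went from 1.51, 1.78 and 1.499 to 0.279, 0.244 and 0.120 CPM, so the labels and the targeted gene go together in all 12 libraries. HSC3 DOX replicate 1 stood apart from the other HSC3 libraries. It held an estimated 15.6 counts per captured molecule against 7.62 and 10.3 in the other HSC3 DOX libraries and 4.33 to 7.73 in HSC3 vehicle cells. Values are therefore given with and without HSC3 DOX replicate 1 where that library decides a call. The estimate also differed between the arms. In CAL27 cells it was 2.31 to 2.62 with vehicle and 3.03 to 3.20 with DOX, without overlap. In HSC3 cells only DOX replicate 2, at 7.62, lay inside the vehicle range. The 8 squamous epithelial markers summed to 7004 to 7180 CPM (of all counts) in CAL27 vehicle cells and 5389 to 6042 in HSC3 vehicle cells, and their sum fell to 3250 to 3448 and 2359 to 2873 with DOX. They did not all fall. In each line 6 were lower (backgrounds 21.8% of all genes tested in CAL27 and 15.4% in HSC3 cells). EPCAM was higher, by 0.40 log2 units in CAL27 and 0.87 in HSC3 cells, and CDH1 gave 0.03 and -0.02. Fibroblast, leukocyte and endothelial markers each summed to at most 16.9 CPM in any library. Of 13 proliferation genes, 10 were higher in CAL27 cells with DOX (background 22.6%), while 11 of 13 were lower in HSC3 cells (background 15.4%). Among well-expressed genes (log2 CPM averaging 5 or more), 2462 of 5841 were higher and 1465 lower in CAL27 cells with DOX. In HSC3 cells 1263 of 5572 such genes were higher and 1337 lower. The part of the marker and proliferation shifts in the results below was not tested.

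The stretches upstream of 3 of the genes show the letters through which NF-Y, a partner of SREBP, is known to bind. Only the SREBF2 stretch also shows the letters of a sterol regulatory element, through which SREBP is known to bind. They are RefSeq sequence on GRCh38.p14, 5′ to 3′ on the strand of the gene, and 28 of the 32 genes had an entry. The lettering TCACNCCAC of a sterol regulatory element, on either strand of the 250 bases before a start, was found in 1 of 28 genes (3.57%), SREBF2, against 1.09% of 27305 genes. The NF-Y letters CCAAT, which do not overlap that element in the stretches shown, were found in 20 of 28 (71.4%) against 37.0% of all genes, and the STAT letters TTCNNNGAA in 0 of 28 against 8.09%. A match is only a match of letters, and genes with several annotated starts had more bases searched. SREBF2 is shown because it holds both elements (chr22:41832945-41833044, plus strand, 160 to 61 bases before its start). SCD (chr10:100346983-100347082, plus strand) and STARD4 (chr5:111512626-111512725, minus strand) were picked after their values were seen, because they fell in both lines and hold CCAAT repeatedly. Capitals mark TCACNCCAC and CCAAT, the latter as ATTGG where it lies on the other strand.
SREBF2: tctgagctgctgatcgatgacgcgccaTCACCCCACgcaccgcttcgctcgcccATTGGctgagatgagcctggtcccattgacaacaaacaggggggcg
SCD: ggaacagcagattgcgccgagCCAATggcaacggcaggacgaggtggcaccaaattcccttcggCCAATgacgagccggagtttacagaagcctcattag
STARD4: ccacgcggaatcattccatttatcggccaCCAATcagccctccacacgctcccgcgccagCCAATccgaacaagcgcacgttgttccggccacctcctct

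MUC1-C silencing in CAL27 cells was accompanied by lower transcript levels across much of the set, with SREBF1, SCD and STARD4 falling furthest and ELOVL6 rising. Of the 32 genes, 18 passed edgeR's quasi-likelihood test at an adjusted p under 0.05 in CAL27 cells, against a background of 44.5% of all genes tested. Well-expressed genes passed more often than all genes. Of 5841 such genes 1914 did not pass, 1465 fell and 2462 rose, while 14 of the 32 did not pass. Among the 18 that passed, 16 fell (background 21.8%) and 2 rose, ACAT2 and ELOVL6 (background 22.6%). In 1 fit over all 12 libraries 9 fell (background then 11.3%), and INSIG2, MVD, IDI1, MSMO1, DHCR7, FASN and FADS1 no longer passed. In 17 of 32 genes all DOX libraries lay below all vehicle libraries (background 26.3%), and in 3 they lay above (background 26.0%). The median log2 fold change of the set was -0.15, while that of all 19239 genes tested was -0.01. Only SREBF1 and ELOVL6 changed by more than 2-fold in CAL27 cells, 2 of 32 against a background of 6.42%.

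In HSC3 cells fewer of the genes changed, and the desaturases FADS1 and FADS2 were the ones that fell furthest. In these cells 7 of 32 passed the same test against a background of 28.4%. Of these, 5 fell, namely SREBF1, STARD4, SCD, FADS1 and FADS2 (background 15.4%), and 2 rose, INSIG1 and SC5D (background 13.0%). In 7 of 32 genes the DOX libraries all lay below the vehicle libraries (background 22.8%) and in 6 all above (background 19.8%). The median log2 fold change was -0.06 in the set and -0.01 over all 18021 genes tested. FADS1 alone changed by more than 2-fold, against a background of 5.98%. The share of genes called in HSC3 cells was thus near or below the background, and without DOX replicate 1 the number that rose went from 2 to 5, with SCAP, MVD and FASN added, while the share of all genes that rose went to 17.5%.

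**Figure D1:**
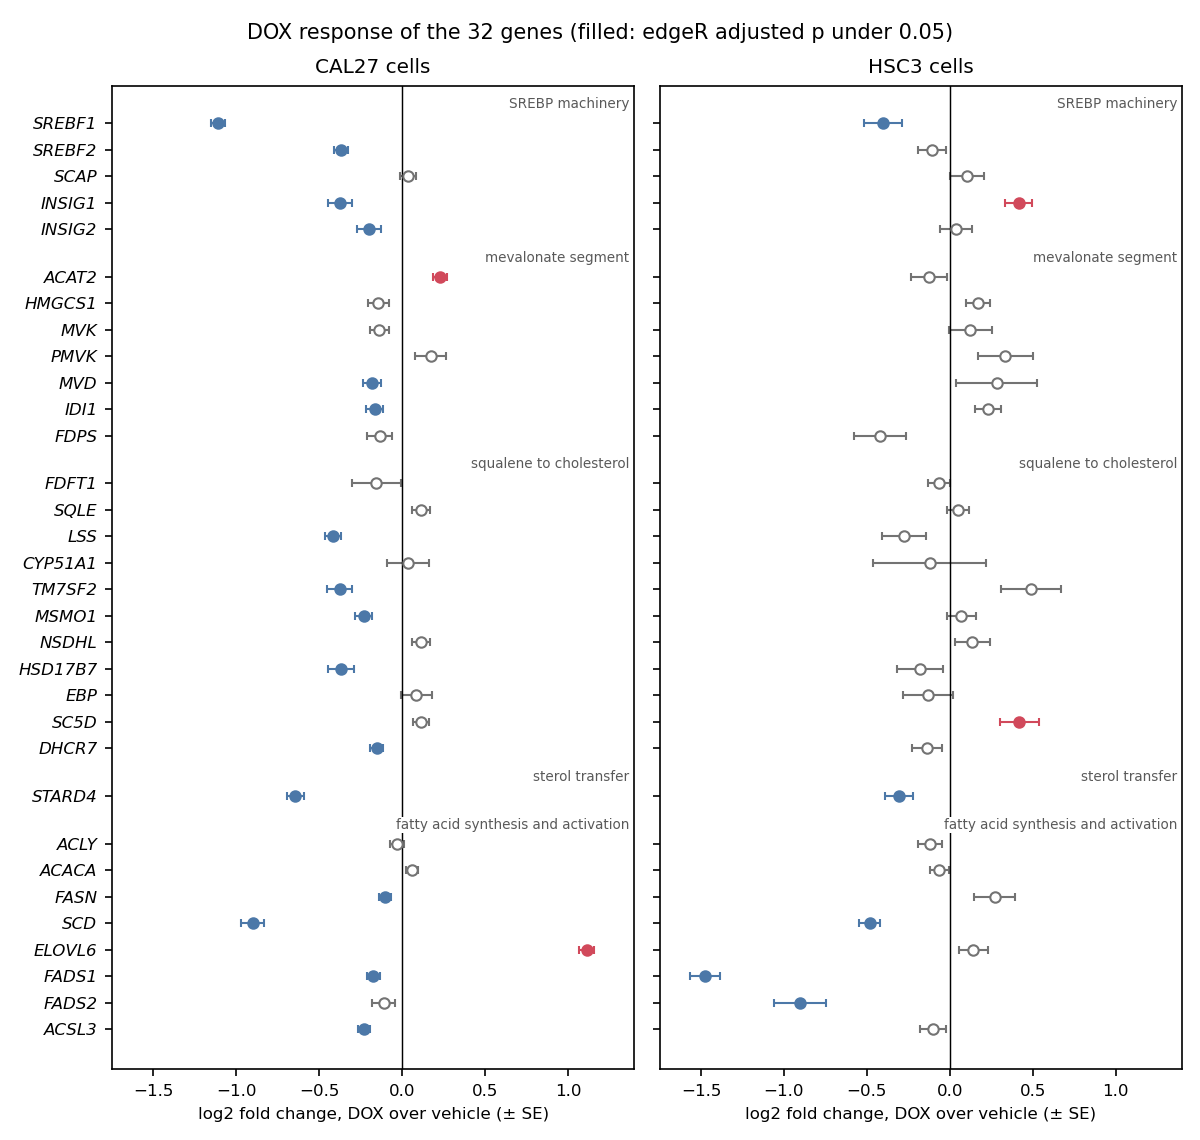
Log2 fold change of each of the 32 genes with DOX over vehicle in CAL27 (left) and HSC3 cells (right), with its SE as a horizontal bar, from 3 libraries per group; filled points passed edgeR's test at an adjusted p under 0.05 (blue lower, red higher) and open points did not. In CAL27 cells 16 genes fell and 2 rose; in HSC3 cells 5 fell and 2 rose, with FADS1 at -1.48.

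SREBF1, which encodes the SREBP-1 transcription factors, lies at chr17:17810399-17837002 (GRCh38, minus strand). In CAL27 cells it was at 253, 247 and 237 CPM with vehicle and at 119, 112 and 110 CPM with DOX. All DOX libraries lay under 50% of the vehicle mean, and the log2 fold change was -1.11 ± 0.04 (SE, adjusted p = 3.5e-14). The HSC3 vehicle libraries held 89.8, 83.6 and 77.2 CPM and the DOX libraries 51.1, 71.4 and 67.2 CPM. These groups did not overlap, with DOX replicate 1 the lowest, and the log2 fold change was -0.40 ± 0.11 (adjusted p = 0.022). The HSC3 call was lost without vehicle replicate 1 (adjusted p = 0.12) or vehicle replicate 2 (adjusted p = 0.077). In bulk RNA fewer cells that express a gene and less RNA per cell cannot be told apart, and the counts do not separate the SREBF1 isoforms.

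SREBF2, the source of SREBP-2, fell less. It stood at 234, 248 and 239 CPM in CAL27 vehicle cells and at 198, 183 and 177 CPM with DOX, with no overlap between the groups and a log2 fold change of -0.37 ± 0.04 (adjusted p = 6.6e-07). In HSC3 cells the vehicle libraries lay at 141, 137 and 137 CPM and the DOX libraries at 113, 143 and 131 CPM, which overlap (log2 fold change -0.11 ± 0.08, adjusted p = 0.40). Per base of exon, the SREBF1 level in CAL27 cells was 0.971 to 1.06 times that of SREBF2 with vehicle and 0.588 to 0.607 times with DOX. In HSC3 cells this ratio was already 0.550 to 0.622 with vehicle and was 0.444 to 0.502 with DOX.

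INSIG1, which retains the SCAP complex in the endoplasmic reticulum and is itself a classical SREBP target, moved in opposite directions. The CAL27 libraries held 107, 108 and 116 CPM with vehicle and 94.7, 84.2 and 76.1 CPM with DOX. The HSC3 libraries held 39.6, 43.4 and 46.3 CPM with vehicle and 60.4, 57.4 and 54.7 CPM with DOX. Neither pair of groups overlapped, and INSIG1 fell by 0.38 ± 0.07 (log2) in CAL27 cells (adjusted p = 0.0011) and rose by 0.42 ± 0.08 in HSC3 cells (adjusted p = 0.0027). Its paralog INSIG2 fell by 0.20 ± 0.07 in CAL27 cells (adjusted p = 0.032), a call lost in 1 fit over all 12 libraries (adjusted p = 0.17) and without vehicle replicate 1 (adjusted p = 0.055), vehicle replicate 3 (0.091) or DOX library 6 (0.17), and gave 0.04 ± 0.10 in HSC3 cells (adjusted p = 0.84). SCAP, the escort protein, gave 0.03 ± 0.05 in CAL27 (adjusted p = 0.62) and 0.10 ± 0.10 in HSC3 cells (adjusted p = 0.53), and without HSC3 DOX replicate 1 its HSC3 value was 0.21 (adjusted p = 0.022). Of the 5 genes of the machinery, 4 fell in CAL27 cells (background 21.8%), while in HSC3 cells 1 fell (background 15.4%) and 1 rose (background 13.0%).

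The mevalonate segment runs from acetyl-CoA to farnesyl diphosphate. In CAL27 cells 1 of its 7 genes rose and 2 fell (backgrounds 22.6% and 21.8%), and in HSC3 cells 0 passed the test in either direction (backgrounds 13.0% and 15.4%). ACAT2, the cytosolic thiolase that joins acetyl-CoA units, was at 57.3, 55.6 and 56.3 CPM in CAL27 vehicle cells and at 67.0, 65.3 and 66.0 CPM with DOX. Every DOX library lay above every vehicle library (log2 fold change 0.23 ± 0.04, adjusted p = 9.9e-05), whereas in HSC3 cells the change was -0.13 ± 0.11 (adjusted p = 0.45). The exons of ACAT2 share 22.2% of their bases with genes on the opposite strand, SOD2 and TCP1 among them, and the strand setting of the counting was not stated.

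The other mevalonate genes stayed within 0.20 log2 units of no change in CAL27 cells. MVD, the mevalonate diphosphate decarboxylase, fell by 0.18 ± 0.06 (adjusted p = 0.010, or 0.62 in 1 fit over all 12 libraries) and IDI1, the isopentenyl diphosphate isomerase, fell by 0.17 ± 0.05 (adjusted p = 0.015, or 0.17 in that fit), the latter not without DOX library 5 (adjusted p = 0.091). HMGCS1, which makes HMG-CoA and shares 37.7% of its exon bases with a gene on the opposite strand, gave -0.14 ± 0.06 (adjusted p = 0.095) and MVK, the mevalonate kinase, -0.14 ± 0.06 (adjusted p = 0.058). Both passed without DOX library 4, at adjusted p = 0.0013 for HMGCS1 and 0.018 for MVK. PMVK, the next kinase, gave 0.17 ± 0.09 (adjusted p = 0.14) and 0.27 without DOX library 6 (adjusted p = 0.0087), and FDPS, the farnesyl diphosphate synthase, gave -0.14 ± 0.08 (adjusted p = 0.17) and -0.23 without vehicle replicate 1 (adjusted p = 0.013).

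In HSC3 cells the mevalonate values lay mostly above 0 without passing the test. They ran from -0.42 ± 0.15 for FDPS (adjusted p = 0.067) to 0.34 ± 0.16 for PMVK (adjusted p = 0.17), with 5 of 7 positive. IDI1 was at 89.7, 92.1 and 98.3 CPM with vehicle and 122, 105 and 101 CPM with DOX, with no overlap (log2 fold change 0.23 ± 0.08, adjusted p = 0.056). HMGCS1 gave 0.17 ± 0.07 (adjusted p = 0.12) and MVK 0.12 ± 0.13 (adjusted p = 0.55). MVD varied widely, from 5.23 to 8.32 CPM with vehicle and from 5.05 to 9.86 CPM with DOX, and its change of 0.28 ± 0.24 (adjusted p = 0.46) became 0.52 without DOX replicate 1 (adjusted p = 0.015). FDPS passed as lower without vehicle replicate 1 (adjusted p = 0.048) or DOX replicate 2 (adjusted p = 0.041).

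Of the 11 genes from squalene to cholesterol, 5 fell and 0 rose in CAL27 cells (backgrounds 21.8% and 22.6%), and 0 fell and 1 rose in HSC3 cells (backgrounds 15.4% and 13.0%). LSS, the lanosterol synthase that folds oxidosqualene into the sterol rings, was at 46.8, 49.7 and 49.4 CPM in CAL27 vehicle cells and 38.65, 36.1 and 34.6 CPM with DOX. The groups were well apart, and LSS fell by 0.42 ± 0.05 on the log2 scale (adjusted p = 8.1e-07). In HSC3 cells its libraries ran from 16.7 to 18.5 CPM with vehicle and from 11.4 to 16.4 CPM with DOX, the lowest being DOX replicate 1 (log2 fold change -0.28 ± 0.14, adjusted p = 0.16). TM7SF2, a sterol reductase, was at 15.8, 16.4 and 15.6 CPM in CAL27 vehicle cells and 13.7, 11.0 and 12.2 CPM with DOX, and fell by 0.38 ± 0.08 (adjusted p = 0.00036). The HSC3 vehicle libraries held 2.56, 2.44 and 2.00 CPM of TM7SF2 and the DOX libraries 3.41, 3.43 and 2.97 CPM. There the DOX libraries were all higher, yet the change of 0.49 ± 0.18 missed the threshold (adjusted p = 0.068).

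Among the enzymes that trim and reduce the sterol rings in CAL27 cells, HSD17B7, a ketoreductase, fell by 0.37 ± 0.08 (adjusted p = 0.00082) and MSMO1, the methylsterol monooxygenase, fell by 0.23 ± 0.05 (adjusted p = 0.00095, or 0.060 in 1 fit over all 12 libraries). DHCR7, the reductase that yields cholesterol from its dehydro precursor, fell by 0.15 ± 0.04 (adjusted p = 0.0045, or 0.19 in that fit). Rows of HSD17B7 pseudogenes held counts amounting to 10.4% of its own, so its reads may be split. The squalene synthase FDFT1 had the largest SE of the set and ran from 65.5 to 93.6 CPM among the CAL27 DOX libraries (log2 fold change -0.16 ± 0.15, adjusted p = 0.48). Squalene epoxidase SQLE (0.11 ± 0.06), the dehydrogenase NSDHL (0.11 ± 0.05) and the desaturase SC5D (0.12 ± 0.05) did not pass with all libraries, at adjusted p = 0.12, 0.11 and 0.058. Each passed as higher without DOX library 6, at adjusted p = 0.00027 for SQLE, 0.016 for NSDHL and 0.0049 for SC5D, and with PMVK these brought the number that rose in CAL27 cells from 2 to 6, with 23.7% of all genes then higher. The isomerase EBP (0.09 ± 0.09, adjusted p = 0.50) and the lanosterol demethylase CYP51A1 (0.03 ± 0.13, adjusted p = 0.86) are uncertain, since other genes on the same strand cover 36.4% and 68.2% of their exon bases, and rows of CYP51A1 pseudogenes held counts amounting to 72.9% of its own.

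SC5D was the only sterol ring gene to pass in HSC3 cells. It was at 67.5, 68.4 and 75.4 CPM with vehicle and at 115, 80.3 and 87.3 CPM with DOX. The groups did not overlap and DOX replicate 1 was the highest, with a log2 fold change of 0.42 ± 0.12 (adjusted p = 0.021). The call was lost without vehicle replicate 1 (adjusted p = 0.096) or vehicle replicate 2 (adjusted p = 0.088). The remaining HSC3 changes in this segment ran from -0.18 ± 0.14 for HSD17B7 (adjusted p = 0.40) to 0.13 ± 0.11 for NSDHL (adjusted p = 0.40), with FDFT1 at -0.07 ± 0.07, SQLE at 0.05 ± 0.06, MSMO1 at 0.07 ± 0.09, DHCR7 at -0.14 ± 0.09, EBP at -0.13 ± 0.15 and CYP51A1 at -0.12 ± 0.34.

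STARD4, a cytosolic carrier that moves sterol between membranes, fell in both lines. It lies at chr5:111496033-111512590 (minus strand). Its level in CAL27 cells was 111, 108 and 112 CPM with vehicle and 77.4, 67.8 and 66.4 CPM with DOX. In HSC3 cells it went from 80.2, 73.8 and 81.3 CPM to 70.5, 57.5 and 62.1 CPM. Neither pair of groups overlapped, and STARD4 fell by 0.64 ± 0.05 on the log2 scale in CAL27 (adjusted p = 4.8e-09) and by 0.31 ± 0.08 in HSC3 cells (adjusted p = 0.019). The HSC3 call was lost without any of 4 libraries: vehicle replicate 1 (adjusted p = 0.083), vehicle replicate 3 (0.087), DOX replicate 2 (0.065) and DOX replicate 3 (0.069).

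Of the 3 enzymes that make palmitate, only FASN passed the test, in CAL27 cells. ACLY, which provides cytosolic acetyl-CoA from citrate, gave -0.03 ± 0.04 in CAL27 (adjusted p = 0.63) and -0.12 ± 0.07 in HSC3 cells (adjusted p = 0.28). ACACA, the acetyl-CoA carboxylase, gave 0.06 ± 0.04 (adjusted p = 0.23) and -0.06 ± 0.06 (adjusted p = 0.49). FASN, the fatty acid synthase, was at 494, 494 and 493 CPM in CAL27 vehicle cells and 454, 459 and 468 CPM with DOX. These groups did not overlap, and the small decrease of 0.10 ± 0.04 (adjusted p = 0.029) was lost in 1 fit over all 12 libraries (adjusted p = 0.62) and without vehicle replicate 1 (adjusted p = 0.052), vehicle replicate 2 (0.055), DOX library 4 (0.067) or DOX library 5 (0.10). In HSC3 cells FASN was at 140, 138 and 120 CPM with vehicle and at 125, 187 and 168 CPM with DOX. DOX replicate 1 lay inside the vehicle range and the other 2 above it, so that the change of 0.27 ± 0.13 (adjusted p = 0.14) became 0.42 without replicate 1 (adjusted p = 2.4e-05).

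SCD, the stearoyl-CoA desaturase that makes oleate, lies at chr10:100347233-100364826 on the plus strand. The CAL27 vehicle libraries contained 1203, 1307 and 1346 CPM and the DOX libraries 763, 681 and 621 CPM. The HSC3 vehicle libraries contained 873, 862 and 979 CPM and the DOX libraries 658, 640 and 645 CPM. Every DOX library lay below every vehicle library of its line. SCD fell by 0.90 ± 0.07 on the log2 scale in CAL27 (adjusted p = 1.8e-06) and by 0.48 ± 0.06 in HSC3 cells (adjusted p = 0.00022). The summed counts of all 32 genes, of which SCD held the most, went from 0.443–0.469% of all counts to 0.339–0.371% in CAL27 and from 0.300–0.316% to 0.266–0.272% in HSC3 cells.

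ELOVL6, which lengthens palmitate to stearate and lies at chr4:110045846-110199199 on the minus strand, was the only gene of the set to rise more than 2-fold. It was at 27.4, 27.9 and 27.4 CPM in CAL27 vehicle cells and at 58.2, 58.7 and 61.9 CPM with DOX. The libraries within a group were nearly alike and the groups far apart, with a log2 fold change of 1.11 ± 0.05 (adjusted p = 1.5e-13). The HSC3 libraries stood at 83.6, 81.3 and 89.3 CPM with vehicle and at 106, 84.6 and 89.8 CPM with DOX, and overlapped (log2 fold change 0.14 ± 0.09, adjusted p = 0.28). Vehicle-treated HSC3 cells thus held a higher ELOVL6 CPM than DOX-treated CAL27 cells. Per base of exon, ELOVL6 was at 0.0147 to 0.0164 times SCD in CAL27 vehicle cells and at 0.0550 to 0.0719 times with DOX.

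FADS1 and FADS2, desaturases that act on polyunsaturated fatty acids, fell furthest in HSC3 cells. FADS1 (chr11:61799627-61829318, minus strand) went from 122, 116 and 123 CPM to 38.9, 42.0 and 48.9 CPM in HSC3 cells, and from 146, 152 and 146 CPM to 131, 128 and 135 CPM in CAL27 cells. The HSC3 DOX libraries all lay under 50% of the vehicle mean, while the CAL27 groups were separate but close. FADS1 fell by 1.48 ± 0.09 on the log2 scale in HSC3 (adjusted p = 8.4e-07) and by 0.17 ± 0.04 in CAL27 cells (adjusted p = 0.00081, or 0.079 in 1 fit over all 12 libraries). FADS2 (chr11:61792980-61867354, plus strand) went from 7.18, 7.57 and 6.59 CPM to 4.03, 4.25 and 3.12 CPM in HSC3 cells, again with no overlap, and fell by 0.90 ± 0.16 (adjusted p = 0.0013). In CAL27 cells FADS2 went from 12.5, 11.3 and 12.1 CPM to 11.1, 10.6 and 11.5 CPM, which overlap (log2 fold change -0.11 ± 0.07, adjusted p = 0.22).

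The RefSeq starts of FADS1 and FADS2 are 599 and 800 bases apart on opposite strands. Their exons overlap over 4.79% of the bases of FADS1 and 4.64% of those of FADS2, and without the strand setting of the counting, reads in that overlap cannot be assigned. ACSL3, which activates long-chain fatty acids to their CoA esters, was at 368, 362 and 362 CPM in CAL27 vehicle cells and 316, 301 and 313 CPM with DOX. It fell by 0.23 ± 0.04 (adjusted p = 2.9e-05), with every DOX library below every vehicle library. In HSC3 cells ACSL3 gave -0.10 ± 0.08 (adjusted p = 0.39) and -0.18 without DOX replicate 1 (adjusted p = 0.012). In all, 1 of the 8 fatty acid genes rose and 4 fell in CAL27 cells (backgrounds 22.6% and 21.8%), and 0 rose and 3 fell in HSC3 cells (backgrounds 13.0% and 15.4%).

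**Figure D2:**
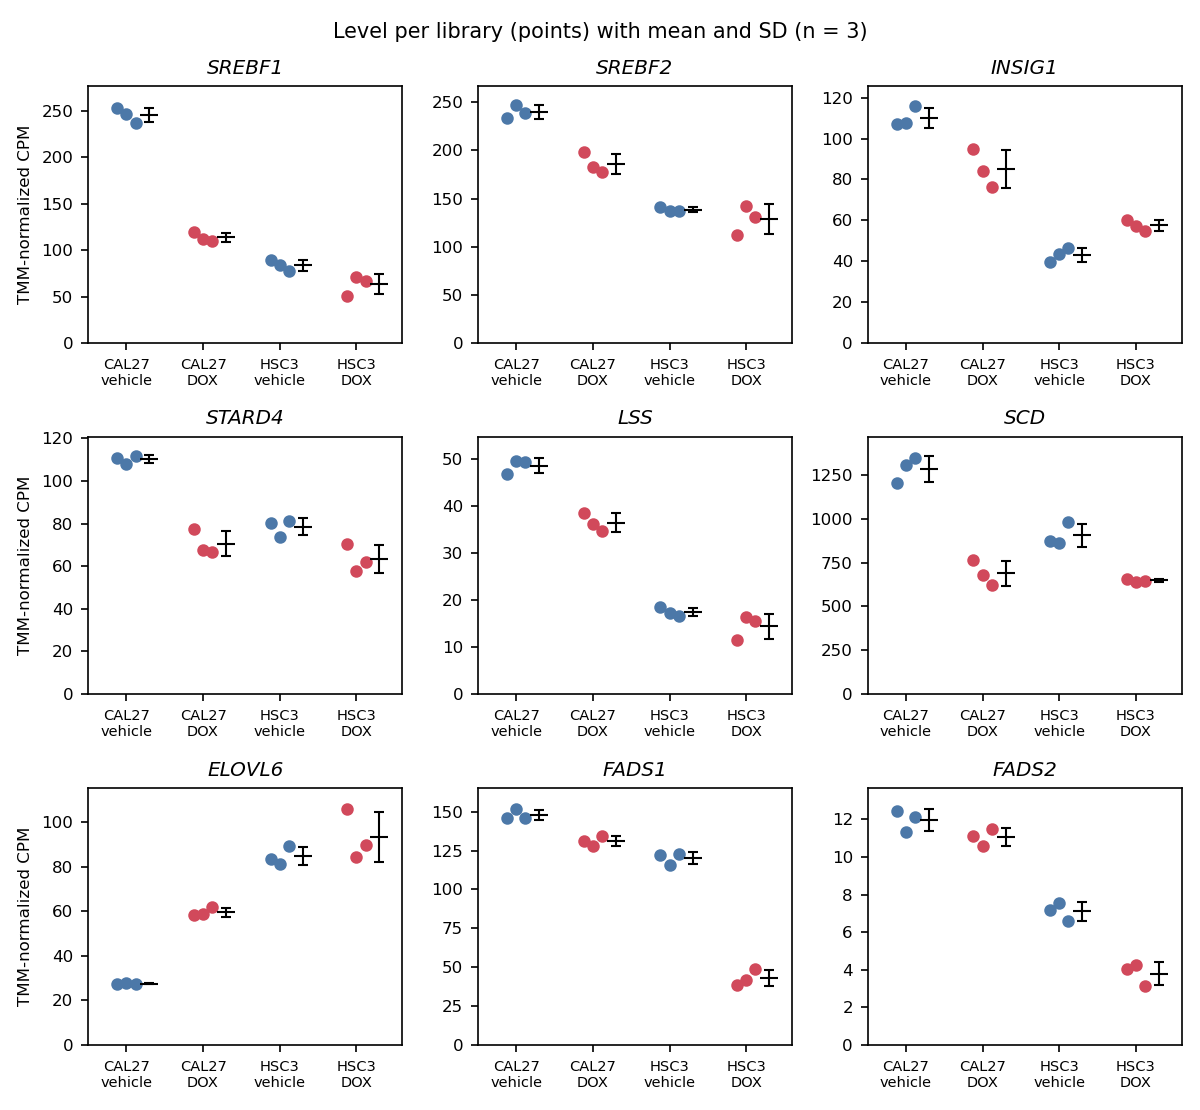
TMM-normalized CPM of 9 of the genes in each library, with vehicle (blue) and DOX (red) in CAL27 and HSC3 cells; black marks give the mean and SD of 3 libraries, each axis starts at 0 and has its own scale. SREBF1 fell from 237–253 to 110–119 CPM and ELOVL6 rose from 27.4–27.9 to 58.2–61.9 CPM in CAL27 cells, whereas FADS1 fell from 116–123 to 38.9–48.9 CPM in HSC3 cells.

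Whether the lines responded differently was tested by the interaction of cell line and DOX over all 12 libraries, in which 20694 genes were tested. It passed for 10 of the 32 genes, against a background of 20.6%. The log2 change was higher in HSC3 cells for 6 genes (background 8.25%), namely SREBF1 by 0.71 ± 0.13 (adjusted p = 0.0012), INSIG1 by 0.79 ± 0.11 (0.00015), TM7SF2 by 0.87 ± 0.17 (0.0018), IDI1 by 0.40 ± 0.11 (0.019), STARD4 by 0.34 ± 0.11 (0.045) and SCD by 0.42 ± 0.10 (0.008). For SREBF1, STARD4 and SCD this was a smaller decrease in HSC3 than in CAL27 cells. It was lower in HSC3 cells for 4 genes (background 12.3%), namely FADS1 with -1.30 ± 0.09 (3.1e-07), ELOVL6 with -0.97 ± 0.11 (1.2e-05), FADS2 with -0.79 ± 0.17 (0.0029) and ACAT2 with -0.35 ± 0.10 (0.026).

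The calls for STARD4 and ACAT2 were not stable in this test. STARD4 lost it when any of 7 of the 12 libraries was left out, with adjusted p up to 0.11, and ACAT2 when any of 8 was left out, with adjusted p up to 0.084. The 7 libraries for STARD4 were CAL27 vehicle replicates 1 to 3, CAL27 DOX libraries 5 and 6, and HSC3 vehicle replicates 1 and 2. For ACAT2 they were the 6 CAL27 libraries and HSC3 vehicle replicates 1 and 2. Without HSC3 DOX replicate 1 the interaction of FASN also passed, at 0.54 (adjusted p = 3.5e-05), as did that of MVD at 0.73 (0.0037), SREBF2 at 0.37 (0.0005), LSS at 0.30 (0.018) and HMGCS1 at 0.28 (0.031), with 27.4% of all genes then passing. The median difference over the set was 0.15, against -0.02 over all genes.

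Set side by side, 4 of the 32 genes passed as lower in both lines, SREBF1, STARD4, SCD and FADS1 (12.5%, against 8.62% of the 17164 genes tested in each line), and 0 as higher in both (against 7.82%). INSIG1 alone passed in opposite directions. Of the 13 genes that passed in CAL27 cells and not in HSC3 cells, only for 4 of these, ACAT2, IDI1, TM7SF2 and ELOVL6, did the interaction pass. For SC5D, which passed in HSC3 cells and not in CAL27 cells, the interaction was 0.31 ± 0.15 (adjusted p = 0.18). The sign of the change was the same in both lines for 19 of 32 genes (59.4%), near the 62.1% of all genes. Pearson's r between the log2 changes of the lines was 0.26 across the 32 genes and 0.385 across all 17164, as a description, since the genes of a pathway are not independent of each other.

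The vehicle-treated lines differed in most of the set before any DOX. Of the 32 genes 30 passed between HSC3 and CAL27 vehicle cells, against a background of 62.9%, with 8 higher in HSC3 cells (background 30.6%) and 22 lower (background 32.3%). The median log2 difference was -0.51 for the set and -0.12 for all genes. The genes furthest below CAL27 in HSC3 cells were TM7SF2 at -2.497 ± 0.13 (adjusted p = 8.9e-11), ACAT2 at -1.68 ± 0.08 (2.4e-11), FASN at -1.62 ± 0.10 (1.6e-09), MVD at -1.56 ± 0.20 (4.3e-06), CYP51A1, whose counting is uncertain, at -1.52 ± 0.23 (3.1e-05) and SREBF1 at -1.28 ± 0.09 (8.4e-09). ELOVL6 was higher by 1.90 ± 0.08 (adjusted p = 7e-12), MSMO1 by 1.18 ± 0.08 (5.2e-09) and IDI1 by 0.67 ± 0.08 (1.9e-06). FADS1 did not pass between the vehicle-treated lines, at -0.02 ± 0.07 (adjusted p = 0.77). HSD17B7 gave -0.24 ± 0.12 (adjusted p = 0.10) and passed without HSC3 DOX replicate 1 (adjusted p = 0.037). Scaling by library totals moved the median of all genes to -0.39 and put FADS1 at -0.29 (adjusted p = 0.0016), with 4 genes higher and 24 lower. ACSL3, higher in HSC3 cells by 0.25 ± 0.07 (adjusted p = 0.004), was then at -0.02 (adjusted p = 0.75).

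Levels of different genes were compared per kilobase (kb) of exon. In CAL27 vehicle cells SCD was highest at 223 ± 11.5 CPM per kb (SD, n = 3), ahead of FASN at 48.1 ± 0.398 and ACLY at 37.1 ± 0.940, each separate from the next. INSIG1, SREBF1, SREBF2, DHCR7 and MSMO1 followed at 27.4 to 26.2 CPM per kb, each overlapping its neighbor in this order. In HSC3 vehicle cells SCD was again highest at 190 ± 13.0 CPM per kb, but MSMO1 came next at 59.5 ± 4.12 and SQLE after it at 31.4 ± 1.84. FASN stood in the ninth place at 15.6 ± 1.34 CPM per kb, overlapping DHCR7 and STARD4. The lowest in both lines was CYP51A1, at 0.657 ± 0.0427 in CAL27 and 0.228 ± 0.0710 CPM per kb in HSC3 cells, a level and place that are uncertain for the overlap and pseudogene counts given above. FADS2 was next to last, and FADS1 exceeded it per base by 12.1- to 13.8-fold in CAL27 and by 15.7- to 19.3-fold in HSC3 vehicle cells.

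**Figure D3:**
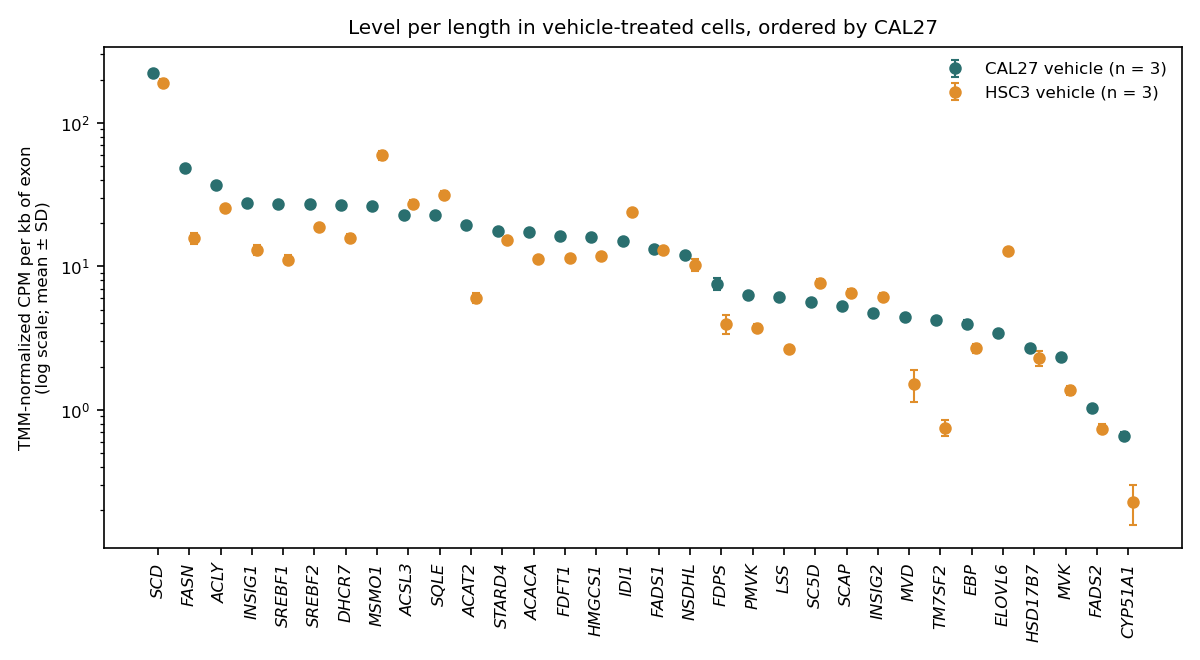
Level per length of the 32 genes in vehicle-treated cells, as TMM-normalized CPM per kb of exon on a log axis, for CAL27 (green) and HSC3 cells (orange); points are means and bars SD of 3 libraries, ordered by CAL27. SCD is highest in both lines and CYP51A1, whose counting is uncertain, lowest, and MSMO1 and ELOVL6 lie higher and FASN and TM7SF2 lower in HSC3 cells.

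Other genes of lipid metabolism were taken from lists by function. The backgrounds for all list counts below are the shares of all genes tested. They were 22.6% higher and 21.8% lower in CAL27 cells, and 13.0% higher and 15.4% lower in HSC3 cells. Of the other sterol synthesis genes, 3 of 9 rose and 4 fell in CAL27 cells (median log2 fold change -0.02), and 1 of 9 rose and 2 fell in HSC3 cells (0.09). TMEM97, a sterol-binding membrane protein, rose by 0.58 ± 0.04 in CAL27 cells (adjusted p = 4.5e-10). LBR, a sterol reductase of the nuclear envelope, went from 164, 161 and 168 CPM to 76.0, 69.9 and 69.5 CPM in HSC3 cells, far below the vehicle libraries, with a log2 fold change of -1.20 ± 0.06 (adjusted p = 4.2e-07). In CAL27 cells LBR fell by 0.17 ± 0.04 (adjusted p = 0.00078).

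Among genes of sterol uptake, transport and storage, 2 of 16 rose and 8 fell in CAL27 cells (median -0.11), and 4 of 17 rose and 4 fell in HSC3 cells (-0.13). VLDLR, a lipoprotein receptor, went from 17.3, 16.1 and 17.5 CPM to 7.78, 8.17 and 7.46 CPM in CAL27 and from 18.8, 20.9 and 23.3 CPM to 9.59, 9.69 and 9.53 CPM in HSC3 cells. All DOX libraries were about level with each other and well below vehicle, with log2 fold changes of -1.12 ± 0.07 (adjusted p = 9.8e-11) and -1.13 ± 0.11 (adjusted p = 2.1e-05). STARD5, a sterol carrier related to STARD4, fell by 1.67 ± 0.15 in CAL27 cells (adjusted p = 1.6e-08), and in HSC3 cells gave -0.91 ± 0.32 (adjusted p = 0.054), or -1.06 without DOX replicate 1 (adjusted p = 0.028). Genes on the opposite strand, IL16 among them, cover 71.98% of the exon bases of STARD5, so its counts are uncertain. LRP8, another receptor of the lipoprotein receptor family, fell by 0.97 ± 0.13 in HSC3 cells (adjusted p = 0.0002) and gave 0.08 ± 0.04 in CAL27 cells (adjusted p = 0.10).

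Of 15 genes that control SREBP processing or sterol-dependent degradation, 5 rose and 5 fell in CAL27 cells (median 0.06), and 3 rose and 7 fell in HSC3 cells (-0.07). MBTPS1, the protease that makes the first cut in the SREBP precursors, went from 162, 167 and 166 CPM to 122, 114 and 113 CPM in CAL27 and from 142, 145 and 150 CPM to 82.7, 76.0 and 81.8 CPM in HSC3 cells. It fell in both lines without overlap, by 0.51 ± 0.04 (adjusted p = 2.4e-09) and by 0.86 ± 0.06 (adjusted p = 3.3e-06). PAQR3, which tethers the SCAP complex to the Golgi, fell by 0.51 ± 0.06 (adjusted p = 9.2e-07) and by 1.28 ± 0.11 (adjusted p = 7.5e-06), with BMP2K covering 45.5% of its exon bases on the opposite strand, and TMEM33 fell by 0.83 ± 0.04 (adjusted p = 6.2e-13) and by 1.44 ± 0.08 (adjusted p = 3.8e-07).

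A further list held LXR (an oxysterol receptor) and oxysterol genes. Of these, 0 of 14 rose and 8 fell in CAL27 cells (backgrounds 22.6% and 21.8%), with a median of -0.32. In HSC3 cells 3 of 13 rose and 4 fell (backgrounds 13.0% and 15.4%), with a median of -0.04. ABCA1, the cholesterol exporter, went from 49.8, 49.4 and 49.2 CPM to 28.8, 31.5 and 31.9 CPM in CAL27 cells and from 91.1, 73.1 and 85.2 CPM to 131, 121 and 123 CPM in HSC3 cells. The groups were separate in each line but in opposite order, with changes of -0.69 ± 0.05 (adjusted p = 5.6e-10) and 0.59 ± 0.08 (adjusted p = 0.00035). MYLIP, a ligase that degrades lipoprotein receptors, likewise fell by 0.43 ± 0.05 in CAL27 (adjusted p = 3.2e-07) and rose by 0.43 ± 0.09 in HSC3 cells (adjusted p = 0.0048). ABCG1, a second sterol exporter, fell by 0.82 ± 0.13 (adjusted p = 2.1e-05) and by 0.39 ± 0.13 (adjusted p = 0.038), the HSC3 call being lost without vehicle replicate 1 (0.18), vehicle replicate 3 (0.11), DOX replicate 2 (0.071) or DOX replicate 3 (0.10). In HSC3 cells NR1H3, which encodes an LXR, rose by 0.69 ± 0.14 (adjusted p = 0.0031), and LPCAT3, a phospholipid remodeling enzyme with EMG1 over 66.0% of its exon bases on the opposite strand, fell by 0.74 ± 0.14 (adjusted p = 0.0026).

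Of other fatty acid synthesis genes, 9 of 27 rose and 10 fell in CAL27 cells (median -0.06), and 6 of 24 rose and 6 fell in HSC3 cells (-0.05). The elongase ELOVL7 fell in both lines, by 0.77 ± 0.05 (adjusted p = 2.5e-10) and by 1.49 ± 0.11 (adjusted p = 3.6e-06), while ELOVL4, which makes very long chains, rose by 0.68 ± 0.06 in CAL27 cells (adjusted p = 3.1e-08). ACSS1, a mitochondrial acetyl-CoA synthetase, went from 4.45, 5.02 and 4.54 CPM to 2.42, 2.499 and 2.20 CPM in CAL27 cells and from 9.29, 8.87 and 8.397 CPM to 15.3, 18.9 and 15.03 CPM in HSC3 cells, separate and in opposite order (-0.98 ± 0.12, adjusted p = 6.5e-07, and 0.89 ± 0.12, adjusted p = 0.00025). Glycerolipid synthesis genes rose in 4 and fell in 6 of 12 in CAL27 (median -0.04), and rose in 2 and fell in 1 of 12 in HSC3 cells (-0.03). GPAM, which starts glycerolipid synthesis, rose in both, by 0.55 ± 0.05 (adjusted p = 8.8e-09) and by 0.47 ± 0.08 (adjusted p = 0.00093).

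Of the fatty acid oxidation genes, 6 of 19 rose and 6 fell in CAL27 cells (median -0.05), and 7 of 17 rose and 1 fell in HSC3 cells (median 0.26, against -0.01 for all genes). CPT1A, the gate to mitochondrial oxidation, went from 71.3, 68.5 and 68.2 CPM to 129, 130 and 130 CPM in CAL27 and from 80.7, 71.3 and 75.4 CPM to 118, 130 and 131 CPM in HSC3 cells. It rose in both without overlap, by 0.90 ± 0.04 (adjusted p = 2.9e-13) and by 0.74 ± 0.07 (adjusted p = 2.7e-05), while SCD fell. Per base of exon the ratio of CPT1A to SCD went from 0.0405–0.0473 to 0.135–0.167 in CAL27 and from 0.0615–0.0737 to 0.143–0.163 in HSC3 cells. In HSC3 cells the carnitine transferase CPT2 rose by 0.55 ± 0.09 (adjusted p = 0.0014). Other genes of the list went the other way from CPT1A. PPARGC1A, a coactivator of mitochondrial genes, fell by 1.61 ± 0.05 in CAL27 cells (adjusted p = 2.5e-15) and was too low to be tested in HSC3 cells. ACADS fell by 1.01 ± 0.19 in CAL27 cells (adjusted p = 0.00015) and gave -0.28 ± 0.20 in HSC3 cells (adjusted p = 0.36).

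**Figure D4:**
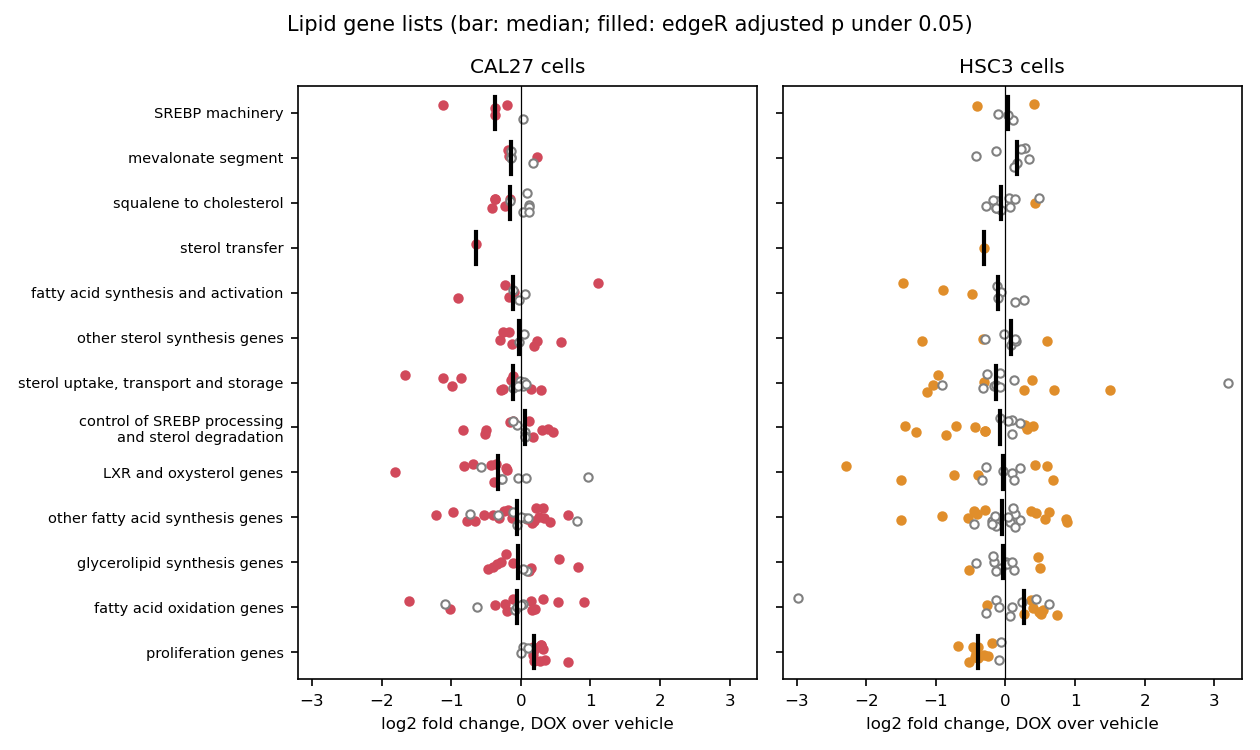
Log2 fold change with DOX over vehicle of every tested gene of each list in CAL27 (left) and HSC3 cells (right); filled points passed edgeR's test at an adjusted p under 0.05, open points did not, the vertical scatter has no meaning, and black bars are list medians. The LXR and oxysterol genes have a median of -0.32 in CAL27 cells, the fatty acid oxidation genes 0.26 in HSC3 cells, and the proliferation genes 0.19 in CAL27 and -0.40 in HSC3 cells.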

How the data were processed

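RNA-seq of poly(A) RNA (stranded TruSeq libraries, HPV-negative CAL27 and HSC3 cell lines) was analysed from 2 tables of raw counts per gene symbol deposited by the authors, 1 per cell line. The submitters' processing notes name FastQC 0.11.9, STAR 2.7.9a, Subread 2.0.1, featureCounts and GRCh38. The paper's methods write the build with a release suffix after GRCh38 but do not name the annotation that was counted, and the strand setting and treatment of duplicate reads are not given in the sources used here. Groups came from the sample titles. The CAL27 DOX columns, numbered 4 to 6, name the group but not the replicate, and are called libraries 4 to 6.

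Within each line, genes were filtered with filterByExpr (count minimum 10), scaled by TMM and tested with edgeR 4.0.16 (limma 3.58.1, R 4.3.3; robust quasi-likelihood fit, two-sided, p-values adjusted by Benjamini-Hochberg over every gene tested), and a gene passed at an adjusted p under 0.05. The difference between lines and the difference between vehicle groups came from 1 fit over 12 libraries with cell line, DOX and their interaction. CPM are TMM-scaled within a line, and per-length levels are CPM scaled over 12 libraries divided by the union exon length in GENCODE release 44 (GRCh38), which matched all 32 genes. Log2 fold changes are edgeR's, and errors are SE unless named SD. p-values measure the spread between triplicate cultures.

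Totals of 89730914 to 169065103 counts per library make counting error small for all but the lowest genes, but counts are not independent molecules. Counts per molecule were estimated from genes expected at 8 to 16 counts, through the share at 0, which assumes that a gene is expressed alike in the libraries of a line and so is approximate. No 2 libraries of a group were alike within sampling noise.

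The procedure was tested on simulated data with 200 genes changed by 1.5 log2 units. It recovered 100% in the CAL27 comparison (19239 genes), 100% in the HSC3 comparison (18021 genes) and 95% for the difference between lines (20694 genes), with 10, 8 and 9 false calls. The changed genes were picked from well-counted genes, and 1 fixed spread was used for every gene. The largest DOX change of any member was -1.48, for FADS1 in HSC3 cells. Recovery of changes smaller than 1.5, or at the spread of the real libraries, was not tested.

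The members and lists were chosen with earlier results of these data known. Genes outside the set were named by rule, at most 3 per list and line, from those with the largest change among genes that passed at a mean of at least 1 CPM. Alternatives were DESeq2 1.42.0, other size factors, library totals, no filter, counts divided by counts per molecule, 1 fit over 12 libraries, stricter thresholds, a replicate block and leaving out each library. HSC3 libraries with the same replicate number did not deviate together (correlations of -0.20, 0.35 and -0.35 over 9064 genes), so the numbers were not taken as pairs. Promoter sequence was RefSeq's on GRCh38.p14.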

Additional observations from a re-analysis of the deposited data

Results flagged for a closer look

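The DOX response of 10 of the 32 genes differed between HSC3 and CAL27 cells by the interaction term of edgeR's quasi-likelihood test at an adjusted p under 0.05. The background was 20.6% of all genes tested, and well-expressed genes passed more often. FADS1 differed by -1.30 log2 units (-1.48 in HSC3 against -0.17 in CAL27 cells, adjusted p = 3.1e-07), and its neighbor FADS2 by -0.79 (-0.90 against -0.11, adjusted p = 0.0029). ELOVL6 differed by -0.97 (0.14 against 1.11, adjusted p = 1.2e-05). INSIG1 differed by 0.79 and passed in opposite directions (0.42 against -0.38, adjusted p = 0.00015), and TM7SF2 differed by 0.87 (0.49 against -0.38, adjusted p = 0.0018). SREBF1 differed by 0.71 (-0.40 against -1.11, adjusted p = 0.0012) and SCD by 0.42 (-0.48 against -0.90, adjusted p = 0.008), both falling less in HSC3 cells. The smaller differences were 0.40 for IDI1 (adjusted p = 0.019), -0.35 for ACAT2 (adjusted p = 0.026) and 0.34 for STARD4 (adjusted p = 0.045). Cell line and culture medium cannot be told apart in any of these.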

How the results depend on the processing

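The number of the 32 genes that passed varied with the threshold and with single libraries. In CAL27 cells, 2 rose and 16 fell. With no filter on low counts 4 rose, 1 rose and 1 fell at a fold change above 2, and 9 fell in 1 fit over all 12 libraries, where INSIG2, MVD, IDI1, MSMO1, DHCR7, FASN and FADS1 no longer passed. Leaving out each library gave 2 to 6 that rose and 14 to 17 that fell. In HSC3 cells, 2 rose and 5 fell. With DESeq2 4 rose, as did 4 in 1 fit over all 12 libraries, 0 rose and 1 fell at a fold change above 2, and 1 rose and 3 fell at an adjusted p under 0.01. Leaving out each library gave 1 to 5 and 4 to 6. For the difference between lines, 6 were higher and 4 lower, with 10 higher after division by counts per molecule, and 5 to 11 higher and 3 to 4 lower when each library was left out. Between vehicle groups, 8 were higher and 22 lower, with 4 higher under library totals, and 8 to 8 higher and 20 to 23 lower when each library was left out. Beyond what each alternative's construction shows, the cause was not tested.

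With the replicate number as a block in HSC3 cells, 2 genes rose and 6 fell, FDPS being added (adjusted p = 0.030), and the block changed no other call among the 32, while outside them ABCG1 lost its call (adjusted p = 0.068). No paired analysis was possible in CAL27 cells or over 12 libraries because the CAL27 DOX columns carry no replicate number.

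No gene that passed changed direction in either DOX comparison. Values near 0 that did not pass turned when a library was left out, between the following limits. In CAL27 cells these were SCAP (-0.0029 to 0.063), CYP51A1 (-0.043 to 0.13), EBP (-0.00016 to 0.18), ACLY (-0.075 to 0.021) and CPT2 (-0.026 to 0.063). In HSC3 cells these were INSIG2 (-0.045 to 0.080), CYP51A1 (-0.32 to 0.15) and MSMO1 (-0.030 to 0.13). In the difference between lines these were FDFT1 (-0.028 to 0.22), SQLE (-0.11 to 0.026), CYP51A1 (-0.34 to 0.13), NSDHL (-0.037 to 0.091) and DHCR7 (-0.046 to 0.13). Under library totals the vehicle difference of ACSL3 was -0.022.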
